A study of Mus musculus with 25 samples.

Results

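Old thymocytes without competition were compared with young thymocytes in 15 of the 25 samples of the series, 9 old and 6 young, which were chosen by their source labels alone. All 15 were CD4-CD8-CD3-CD25+ cells, the thymocyte compartment that spans the TN2 and TN3 stages. The old samples were of F1(WB x B6/Ly5.1) background, came from hosts of the type Rag2-/-γc-/-KitW/Wv, which the labels call non-competitive, and 8 of the 9 were labelled as TN2/3 cells of donor origin; replicate 1 carried no cell type label. The young samples were host TN2/3 cells of C57BL/6 background with the CD45.2 marker. The hosts of the old cells carry a mutated Kit receptor and lack the recombinase gene Rag2 and the common gamma chain of cytokine receptors, a combination with which a host makes no T cells of its own. The ages of the cells and hosts and the number of mice are not given in the labels. The other 10 samples, 6 of old cells with competition and 2 each of sorted wild-type TN2 and TN3 cells of B6/Ly5.1 background, entered the fit for its estimate of spread and serve below as levels for orientation. The series asks how competition between thymocytes bears on their turnover.

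In the thymus, cells at the TN2 stage still carry CD44 and Kit and shed the programme of their bone marrow progenitors, whereas cells at the TN3 stage have lost both, rearrange the T cell receptor beta locus and are tested for a working pre-T cell receptor. New progenitors normally enter from the bone marrow and displace the cells that were there before. When none enter, as in hosts whose own progenitors cannot make competitive thymocytes, older thymocytes persist and keep dividing, and T cell leukaemia can follow. Interferons signal through Janus kinases, STAT proteins and interferon regulatory factors, which bind the interferon-stimulated response elements of antiviral, guanylate-binding protein and major histocompatibility complex (MHC) genes.

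Expression was measured on Illumina bead arrays, 1 per sample, and is given as a normalised log2 signal, on which genes that were not detected lay near 4. The old arrays lay on chip 1 (replicates 1, 2, 3, 7, 8 and 9) and chip 5 (replicates 4, 5 and 6), and the young arrays on chip 2 (replicates 1, 5 and 6) and chip 4 (replicates 2, 3 and 4), where the chips are numbered in the order of the barcodes in the sample titles. No chip held both groups, so that chip, strain background, host and the age and origin of the cells cannot be told apart in this comparison. The contrast was also computed with each chip of the old group alone. Arrays of a group correlated over the 15533 genes tested with r of 0.9355 to 0.9689 (old) and 0.9498 to 0.9786 (young). A detection p-value below 0.05 was reached by 41.07% to 45.66% of the probes on the old arrays and by 46.68% to 50.1% on the young arrays, which did not overlap. Old replicate 1, the sample without a cell type label, had the lowest share. Of its genes 532 were over 1 log2 unit away from their group means. There were 79 to 269 such genes on each other old array and 32 to 234 on each young array. An array of old cells with competition, number 6, had 1617 and enters the estimate of spread and the means given for old cells with competition. Xist, which is transcribed from the inactive X chromosome of female cells, was at 8.12 to 9.21 on 7 of the 9 old arrays and near 4 on replicates 5 and 6. It was at 8.83 to 9.58 on the 3 young arrays of chip 2 and near 4 on the 3 of chip 4. Eif2s3y, a gene of the Y chromosome, was the mirror image, at 6.30 and 7.01 on old replicates 5 and 6, against 7.56 to 7.86 on the young arrays of chip 4, and near 4 on the others. Neither gene passed between the groups. The contrast of old chip 1 with young chip 2 held only arrays with high Xist. Fewer cells of a type and less RNA per cell cannot be told apart in such bulk samples.

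Of 15533 genes tested, 1387 (8.93%) differed at an adjusted p below 0.05 and are called here: 493 (3.17%) were higher and 894 (5.76%) lower in old cells than in young cells. Of the called genes 64.5% were lower, but 50.1% of 4739 genes called with median scaling in place of quantile normalization (2374 lower, 2365 higher). Without young replicate 6 there were 327 higher genes and 698 lower ones. The difference was at least 2-fold for 333 of them, 70 higher and 263 lower. The median difference over all genes was 0.02 on the log2 scale. For 497 genes (3.2%) the 9 old and 6 young values did not overlap, and 447 of these were called. Old chip 1 alone against young cells gave 854 genes (5.5%) and old chip 5 alone 929 (5.98%), and 542 genes were called in both and over the whole group. These contrasts share the young arrays, so chips were also paired without sharing any array. Old chip 1 minus young chip 2 gave 497 genes (3.2%) and old chip 5 minus young chip 4 gave 456 (2.94%). They had 244 genes (1.57%) in common, 49.1% of the first list and 53.5% of the second, all with the same sign: 51 higher and 193 lower. In the other pairing, old chip 1 minus young chip 4 gave 366 genes (2.36%) and old chip 5 minus young chip 2 gave 662 (4.26%), with 209 (1.35%) in common, 57.1% and 31.6% of the lists, again all of the same sign, 41 higher and 168 lower. Between the 2 chips of the old group 2 genes (0.0129%) differed, 4930513E20Rik (0.80, adjusted p = 0.000629) and Nkpd1 (0.58, adjusted p = 0.0122), both higher on chip 5 and neither called between old and young cells.

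**Figure D1:**
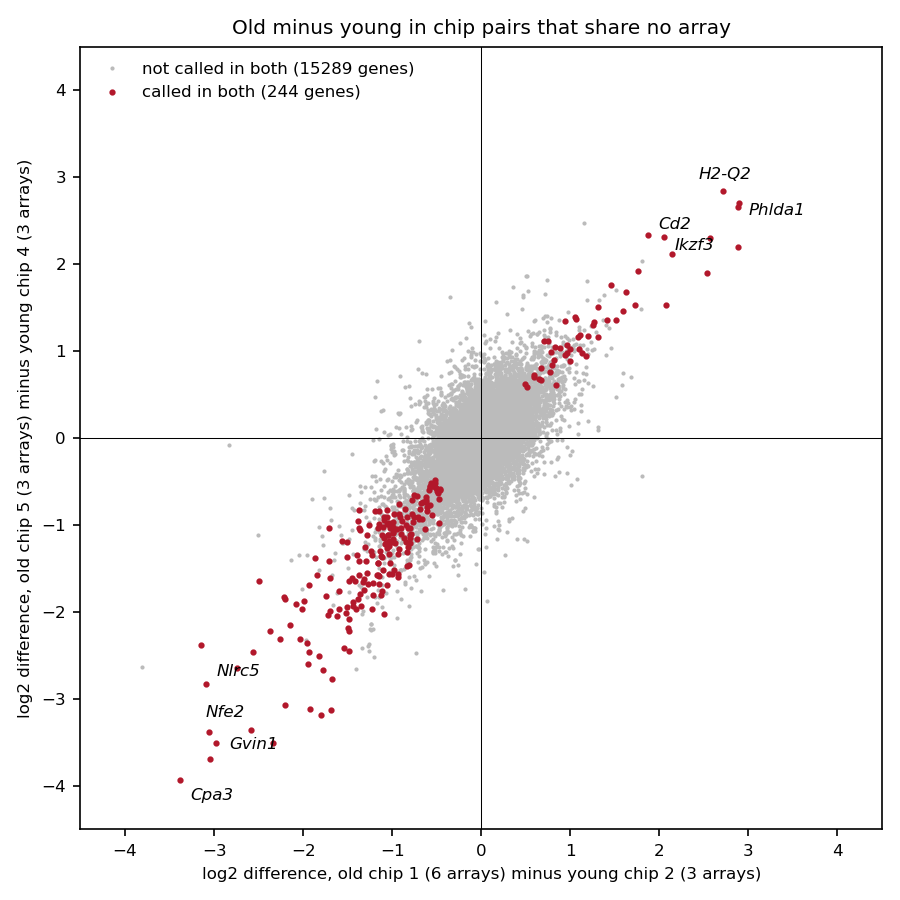
Each point is 1 of 15533 genes; the x axis is the log2 difference of old chip 1 (6 arrays) minus young chip 2 (3 arrays) and the y axis that of old chip 5 (3 arrays) minus young chip 4 (3 arrays), which share no array. The 244 genes called in both (red) lie in the lower left (193 lower in old cells) and the upper right (51 higher), with Cpa3, Gvin1, Nlrc5 and Nfe2 among the largest falls and H2-Q2, Phlda1, Ikzf3 and Cd2 among the largest rises.

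Among called genes whose values did not overlap between the groups, those that fell furthest in old cells were genes of progenitors, myeloid and mast cells, and of the interferon response. Cpa3, which encodes carboxypeptidase A3 of mast cells and their progenitors, had log2 signals of 4.09 to 6.33 (median 4.43) on the old arrays, against 8.11 to 8.81 (median 8.27) on the young arrays. The highest old array lay well under the lowest young one, and the mean was 11.5-fold lower (-3.52 ± 0.30 log2 ± SE, adjusted p = 4.76e-08); it differed by -3.26 with old chip 1 and -4.05 with old chip 5. Muc13, a transmembrane mucin, was at 4.12 to 6.10 (median 4.35) on the old arrays and at 7.84 to 8.21 (median 8.00) on the young arrays (-3.23 ± 0.28, adjusted p = 7.87e-08). Nfe2, a transcription factor of megakaryocytic and erythroid progenitors, stood at 4.12 to 6.29 (median 4.40) on the old arrays, against 7.28 to 8.10 (median 7.60) on the young arrays (-2.84 ± 0.29, adjusted p = 8.65e-07). For these 3 genes no old value reached a young one, and the spread lay within old chip 1. Cpa3 was at 6.33, 5.32 and 6.12 on replicates 7, 8 and 9 of chip 1, against 4.09 to 4.64 on its replicates 1, 2 and 3 and on chip 5. Muc13 was at 5.68 to 6.10 on the same 3 arrays and at 4.12 to 4.44 on the other 6, and Nfe2 was highest on replicates 7 and 9. Replicates 7, 8 and 9 were also the old arrays nearest to the young values for H2-Q2, Phlda1 and Cd2, which rose. Their part in the differences was not tested. Cd163, a scavenger receptor of macrophages, was detected on 1 of the 9 old arrays (4.07 to 4.97 (median 4.11)) and on all 6 young arrays (6.49 to 7.25 (median 7.01)), with a difference of -2.66 ± 0.19 (adjusted p = 3.55e-09). Clec10a, a C-type lectin of macrophages and dendritic cells, was detected on 4 old arrays (4.08 to 6.02 (median 4.23)) and on all young arrays (6.49 to 8.46 (median 7.20); -2.82 ± 0.28, adjusted p = 7.9e-07). The adaptor Lat2, the inflammatory caspase gene Casp1, the leukotriene synthesis gene Alox5ap, the adaptor Tyrobp of myeloid and natural killer cell receptors, the G protein subunit gene Gng2, the growth factor binding protein gene Igfbp4 and Sytl4, which acts in granule exocytosis, had differences of -2.71 to -2.14 and all fell; 1 of the 3 probes of Lat2 had the opposite sign. Gvin1, Nlrc5 and Ifitm3, which complete the 15 largest falls, are described with the interferon genes.

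Sorted TN2 and TN3 cells on the same array type give a scale for these genes. Cpa3 averaged 9.34 on the 2 TN2 arrays and 5.62 on the 2 TN3 arrays, Cd163 7.34 and 4.68, Tyrobp 8.11 and 4.64, and Nfe2 7.95 and 5.52, so that each was higher in TN2 than in TN3 cells. Clec10a was at 5.59 and 4.10, below the young median in both. On the arrays of old cells with competition Cpa3 was at 4.14 to 4.87 and Cd163 at 4.12 to 5.11. Of the 894 genes lower in old cells, 661 (73.9%) had a higher mean in TN2 than in TN3 cells, as had 156 (31.6%) of the 493 higher genes and 7756 (49.9%) of all 15533. No TN2 or TN3 array enters either group, though 1 of each lay on chip 5 beside old arrays, and these shares are given without a test.

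**Figure D2:**
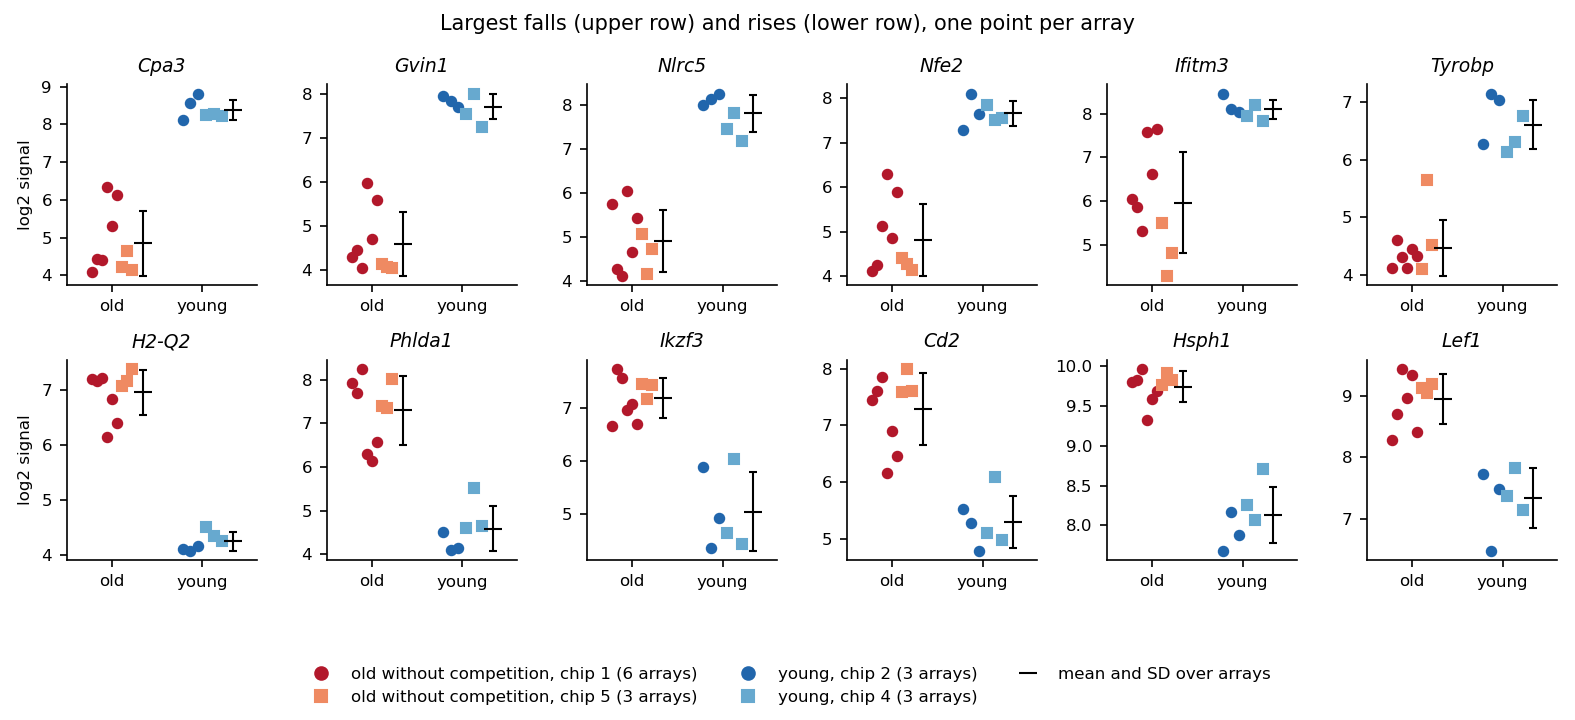
Log2 signal of 6 of the largest falls (upper row) and 6 of the largest rises (lower row), 1 point per array, with 9 old arrays left of 6 young arrays in each panel; symbols mark the chips and bars the mean and SD over the arrays of a group. The 12 genes were taken from those whose old and young values do not overlap, so that their separation is a description only. Genes with overlapping values, such as Hbb-b1 (-3.20 ± 0.59), are not shown. Cpa3 lies at 4.09 to 6.33 (median 4.43) on the old and 8.11 to 8.81 (median 8.27) on the young arrays, and H2-Q2 at 6.15 to 7.39 (median 7.16) and 4.07 to 4.51 (median 4.21).

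Fewer genes rose by 2-fold or more, and those that rose furthest without overlap were of mixed function. H2-Q2, a nonclassical MHC class I gene, had log2 signals of 6.15 to 7.39 (median 7.16) on the old arrays, against 4.07 to 4.51 (median 4.21) on the young arrays, where it was detected on 2 of 6 (2.72 ± 0.21, adjusted p = 1.45e-08). On the arrays of old cells with competition H2-Q2 was at 4.82 to 6.43. Its relatives are near-identical in sequence, so its probe may also read another class I gene. Phlda1, an early response gene that restrains growth factor signalling, was at 6.13 to 8.25 (median 7.39) on the old arrays and 4.10 to 5.52 (median 4.56) on the young ones (2.70 ± 0.30, adjusted p = 2.3e-06). It was at 6.11 to 6.95 in old cells with competition. Ctse, which encodes cathepsin E, an endosomal protease, was at 6.73 to 7.94 (median 7.19) on the old arrays, against 4.16 to 5.05 (median 4.73) on the young arrays (2.62 ± 0.17, adjusted p = 5.64e-10). It averaged 7.59 in old cells with competition, 8.04 in TN2 and 7.75 in TN3 cells, so that the young cells alone were low. Rsph1, a component of the radial spokes of cilia, ran the other way: 7.40 to 8.28 (median 7.91) on the old arrays, against 4.57 to 6.23 (median 5.33) on the young arrays (2.51 ± 0.21, adjusted p = 4.12e-08), and 4.99, 5.19 and 5.10 on average in old cells with competition, TN2 and TN3 cells. Here the old cells without competition alone were high. Old cells without competition were the only group of F1(WB x B6/Ly5.1) background and young cells the only one of C57BL/6 background, so strain and cell state cannot be told apart for either gene. The other 11 of the 15 largest rises were Ikzf3, Lef1, Cd2 and Nrp1, described below, the growth factor gene Pdgfa, the chaperone gene Hsph1, the immunoglobulin superfamily gene Igsf3, the hormone gene Stc1, the DNA helicase gene Recql4, the mRNA capping enzyme gene Rngtt and Cpsf4l, a relative of a polyadenylation factor. They rose by 1.39 to 2.33. Of the 3 probes of Cpsf4l and of Recql4, 1 each had the opposite sign.

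Genes of early progenitors and the TN2 stage fell in old cells. Of 18 measured members 10 fell and 0 rose, with a median of -0.46, where 5.76% of all genes were lower. Kit, the receptor for stem cell factor, had log2 signals of 4.28 to 5.47 (median 4.49) on the old arrays, against 6.60 to 7.36 (median 6.91) on the young arrays (-2.12 ± 0.24, adjusted p = 2.39e-06), and averaged 7.61 in TN2 and 5.69 in TN3 cells. All 9 old arrays lay below the TN3 mean and all 6 young arrays between the TN3 and TN2 means. Cd44, the adhesion receptor that separates TN2 from TN3 cells, was at 4.38 to 4.72 (median 4.57) on the old arrays and 5.08 to 6.37 (median 5.69) on the young arrays (-1.13 ± 0.14, adjusted p = 8.38e-06), with 6.34 in TN2 and 4.46 in TN3 cells; 1 of its 7 probes had the opposite sign. The homeobox gene Hhex fell by 1.69 ± 0.18 and Lyl1, a basic helix-loop-helix factor of progenitors, fell by 1.03 ± 0.14, both without overlap between the groups. The zinc finger gene Bcl11a (-0.89 ± 0.17), the ETS family gene Erg (-0.75 ± 0.20) and the LIM domain gene Lmo2 (-0.54 ± 0.16) fell with values that overlapped between the groups, and Spi1, which encodes PU.1, was not detected on any old array and was at least 1.1-fold lower (adjusted p = 0.0257). Progenitor genes that did not pass lay near the floor in both groups: Flt3 was at 4.10 to 4.49 (median 4.21) on the old and 4.08 to 4.41 (median 4.16) on the young arrays, and Meis1 at 4.10 to 4.97 (median 4.15) and 4.13 to 4.54 (median 4.24). Averaged over the list, the signal was 4.43 in old cells, against 5.17 in young cells, with 5.67 in TN2 and 4.57 in TN3 cells. It was 4.36 in old cells with competition. Erg (adjusted p = 0.0518 without young replicate 5), Spi1 (adjusted p up to 0.0795 without young replicate 3, 5 or 6) and Lmo2 (adjusted p up to 0.102 without old replicate 3, 5 or 6 or young replicate 1, 5 or 6) no longer passed with 1 array left out. Against young chip 4 alone 6 members fell.

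**Figure D3:**
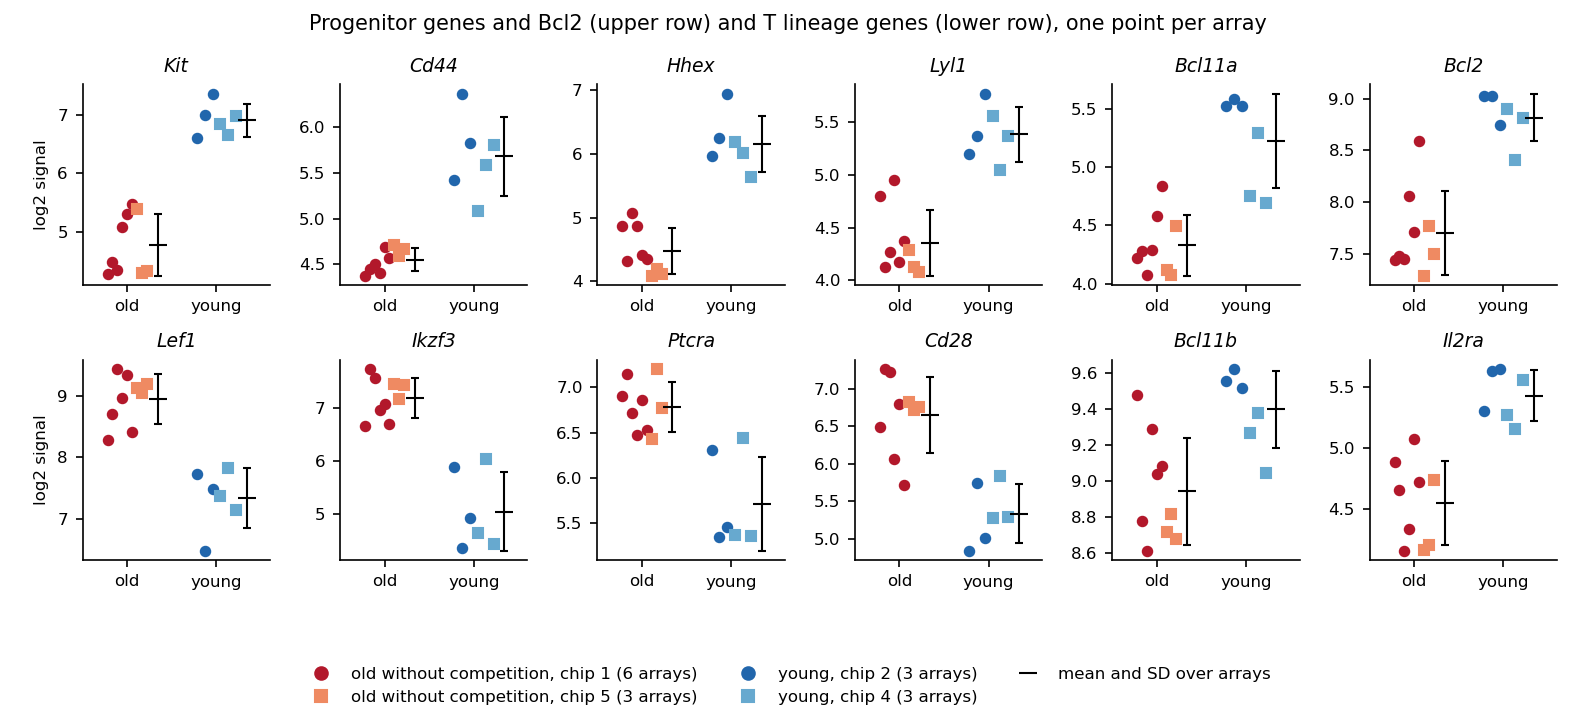
Log2 signal of 5 progenitor genes and Bcl2 (upper row) and of 6 genes of the T lineage (lower row), 1 point per array, old arrays left of young arrays; symbols mark the chips and bars the mean and SD. Kit lies at 4.28 to 5.47 (median 4.49) on the old and 6.60 to 7.36 (median 6.91) on the young arrays without overlap, while the values of Ptcra and Bcl11b overlap between the groups.

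Most T lineage genes did not pass, and those that did went both ways. Of 19 measured commitment factors 3 rose and 2 fell. Lef1, a partner of beta-catenin that is switched on as T cells commit, was at 8.28 to 9.44 (median 9.05) on the old arrays, against 6.48 to 7.83 (median 7.43) on the young arrays (1.61 ± 0.24, adjusted p = 0.000116); it averaged 4.81 in TN2 and 9.18 in TN3 cells. Ikzf3, the gene of the Ikaros relative Aiolos, had 6.65 to 7.73 (median 7.17) on the old arrays and 4.35 to 6.04 (median 4.78) on the young arrays (2.14 ± 0.32, adjusted p = 9.65e-05). Ets2 rose by 0.98 ± 0.31, and the E protein genes Tcf12 (-0.60 ± 0.16) and Tcf4 (-0.55 ± 0.15) fell, with 2 of the 3 probes of Tcf12 of opposite sign. Bcl11b, the commitment factor that guards T cell identity, differed by -0.45 ± 0.16 (adjusted p = 0.0815) and Gata3 by 0.23 ± 0.18 (adjusted p = 0.517); neither passed. Of the 10 measured recombination genes 0 passed, where 8.93% of all genes did: Rag1, a subunit of the recombinase, was at -0.22 ± 0.19, Rag2 at 0.05 ± 0.30 and Dntt, the enzyme that adds bases at the joints, at -0.42 ± 0.14. With median scaling in place of quantile normalization, 4 recombination genes fell and 1 rose, and 7 commitment factors fell and 2 rose. Bcl11b passed as lower under 6 of 31 alternatives and Dntt under 5. Tcf12 (adjusted p = 0.0511 without young replicate 6), Tcf4 (adjusted p up to 0.063 without young replicate 5 or 6) and Ets2 (adjusted p up to 0.0997 without 1 of 12 arrays) no longer passed with 1 array left out.

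Of 17 genes of the CD3 complex and pre-T cell receptor signalling 2 rose and 0 fell (11.8% called, against 8.93% of all genes tested). With old chip 1 only 2 rose, but with old chip 5 only 0 rose and 1 fell. Ptcra, the invariant alpha chain of that receptor, was at 6.43 to 7.20 (median 6.77) on the old arrays and 5.34 to 6.44 (median 5.41) on the young arrays (1.07 ± 0.23, adjusted p = 0.0037), with means of 4.71 in TN2 and 6.70 in TN3 cells; the highest young array, of chip 4, reached the lowest old one. The kinase gene Zap70 rose by 0.73 ± 0.19, with 1 of its 3 probes of opposite sign. With old chip 5 only neither Ptcra nor Zap70 passed. Zap70 also did not pass with either young chip alone, with median scaling or with the mean of all its kept probes. With the old group split by chip instead, 1 of the 2 genes that rose passed with each old chip. The CD3 chains Cd3e, Cd3d, Cd3g and Cd247 differed by -0.32 to 0.11 and did not pass. Among 10 co-receptor and post-selection genes (40% called), Cd2 and Cd28 rose and Cd53 and Cd69 fell. Cd2, an adhesion receptor of T cells, was at 6.17 to 7.99 (median 7.58) on the old arrays, against 4.79 to 6.09 (median 5.19) on the young arrays (1.99 ± 0.32, adjusted p = 0.00019), and averaged 4.61 in TN2 and 4.94 in TN3 cells, below every old array. In old cells with competition Cd2 was at 6.37 to 8.77. Cd28, the co-stimulatory receptor, had 5.71 to 7.27 (median 6.76) on the old and 4.84 to 5.84 (median 5.28) on the young arrays (1.32 ± 0.26, adjusted p = 0.00177). The tetraspanin gene Cd53 was lower at 4.93 to 6.87 (median 5.66) on the old arrays, against 7.53 to 8.19 (median 7.70) on the young arrays (-2.05 ± 0.29, adjusted p = 4.47e-05), and the activation marker Cd69 fell by 1.08 ± 0.25. In refits with old chip 1 only Cd69 did not pass, and with young chip 4 only neither Cd69 nor Cd28 did. With the old group split by chip, all 4 called genes of this list passed with each old chip. Cd4 (0.29 ± 0.45) and Cd8b1 (-0.21 ± 0.16) did not pass.

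Notch targets were mixed. Of 15 measured members 20% were called, against 8.93% of all genes tested. Dtx1 rose by 0.95 ± 0.25 (adjusted p = 0.0171), Ptcra rose as above, and Il2ra fell. In refits with old chip 1 only 1 member rose, and with old chip 5 only 0. With the old group split by chip instead, 2 of the called members passed with each old chip. Dtx1 did not pass in the refit with old chip 1 only, old chip 5 only or young chip 2 only, or with median scaling. Il2ra, the alpha chain of the interleukin 2 receptor that the sort selected as CD25, was at 4.16 to 5.07 (median 4.65) on the old arrays, detected on 5 of 9, and at 5.15 to 5.65 (median 5.43) on the young arrays (-0.88 ± 0.16, adjusted p = 0.000625). It averaged 4.52 and 4.27 on the TN2 and TN3 arrays, which hold CD25+ cells too, so its probe reads low in cells that carry the protein. Notch1 (-0.03 ± 0.16) and Hes1 (0.05 ± 0.21) did not pass.

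Signalling from interleukin 7, which keeps early thymocytes alive through Jak1, Jak3 and STAT5, had 4 of 16 measured genes lower and 0 higher, with a median of -0.52. Over all genes tested 5.76% were lower and the median was 0.02. Socs2, a STAT5 target that feeds back on cytokine receptors, was at 4.18 to 5.97 (median 5.07) on the old arrays, against 6.22 to 6.93 (median 6.44) on the young arrays (-1.52 ± 0.22, adjusted p = 5.39e-05). Jak1 was at 4.21 to 4.67 (median 4.36) on the old and 4.86 to 5.19 (median 4.95) on the young arrays (-0.58 ± 0.11, adjusted p = 0.000914). Stat5a fell by 0.39 ± 0.11. Bcl2, the survival gene that interleukin 7 sustains, had 7.29 to 8.59 (median 7.50) on the old arrays and 8.40 to 9.02 (median 8.86) on the young arrays (-1.12 ± 0.23, adjusted p = 0.00277); the highest old array overlapped the lowest young one. The receptor genes did not pass: Il7r was at -0.47 ± 0.25 (adjusted p = 0.292) and Il2rg, the gene disrupted in the hosts of the old cells, at -0.81 ± 0.32 (adjusted p = 0.123), detected on 7 of 9 old and all 6 young arrays. Kit, the third gene mutated in these hosts, is given with the progenitor genes, and Ptprc, which encodes CD45, did not pass (-0.21 ± 0.16, adjusted p = 0.519); whether its probes separate the alleles was not tested. Stat5a (adjusted p = 0.0622 without young replicate 6) no longer passed with 1 array left out.

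Of 15 measured Bcl2 family genes 1 rose and 2 fell, and of 17 measured genes of the p53 response 0 rose and 3 fell (20% and 17.6% called, against 8.93% of all genes tested). Bid, which links death receptors to mitochondria, was at 6.65 to 8.58 (median 7.38) on the old arrays and 5.71 to 6.83 (median 6.04) on the young arrays (1.16 ± 0.27, adjusted p = 0.0072). Bbc3, the p53 target Puma, fell by 1.52 ± 0.46 (adjusted p = 0.0383), but 2 of its 3 probes had the opposite sign. The cell cycle inhibitor Cdkn1a, another p53 target, was at 4.97 to 6.91 (median 5.90) on the old arrays and 6.74 to 8.11 (median 7.28) on the young arrays (-1.41 ± 0.33, adjusted p = 0.00742), and Trp53inp1 fell by 1.13 ± 0.24 without overlap. These were the 3 p53 genes that passed, and Mdm2 (-0.01 ± 0.15) and Ccng1 (0.06 ± 0.12) did not. Bbc3 (adjusted p up to 0.0894 without 1 of 8 arrays) no longer passed with 1 array left out. Cdkn1a did not pass with old chip 1 only or with either young chip alone, nor Bid with either young chip alone. With young chip 4 only 0 genes of these 2 lists passed.

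Interferon genes were lower in old cells. Of 16 measured interferon-inducible GTPases, which attack the vacuoles of intracellular pathogens, 14 fell and 0 rose (median -1.14). With the old group split by chip, 13 of the 14 fell with each old chip. In refits 12 GTPases fell with old chip 1 only and 13 with old chip 5 only. Of 25 measured type I interferon antiviral genes, 18 fell and 0 rose (median -1.10), 13 of them with each old chip when split. In refits 13 antiviral genes fell with old chip 1 only and 15 with old chip 5 only. Of 18 receptors, STAT and interferon regulatory factor genes, 8 fell and 0 rose (median -0.43). The background for these counts was 5.76% of all genes lower and a median of 0.02. Against young chip 4 alone 9 GTPases, 10 antiviral genes and 4 regulators fell.

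Promoters of 5 of these called genes and of the chaperone gene Hsph1 were read from RefSeq on GRCm38.p6, each from 250 bases before to 50 bases after the annotated start, 5′ to 3′ on the strand of the gene. They are shown for the response elements that they hold, in capitals: GAAA, any 2 bases and GAAA on either strand for the interferon-stimulated response element, and GAA, any 2 bases, TTC, any 2 bases and GAA, or the same with TTC and GAA exchanged, for the heat shock element. Overlapping matches were all counted.
Gbp2: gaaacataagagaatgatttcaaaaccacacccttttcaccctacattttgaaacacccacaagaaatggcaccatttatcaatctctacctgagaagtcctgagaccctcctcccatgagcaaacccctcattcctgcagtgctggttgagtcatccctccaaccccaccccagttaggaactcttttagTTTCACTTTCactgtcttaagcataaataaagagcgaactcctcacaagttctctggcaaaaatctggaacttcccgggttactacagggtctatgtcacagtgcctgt
Irgm2: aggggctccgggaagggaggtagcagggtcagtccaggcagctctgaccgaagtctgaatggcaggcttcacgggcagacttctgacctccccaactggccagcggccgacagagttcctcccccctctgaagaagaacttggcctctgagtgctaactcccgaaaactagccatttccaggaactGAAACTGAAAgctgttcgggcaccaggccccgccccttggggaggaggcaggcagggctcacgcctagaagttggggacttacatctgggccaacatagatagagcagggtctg
Rsad2: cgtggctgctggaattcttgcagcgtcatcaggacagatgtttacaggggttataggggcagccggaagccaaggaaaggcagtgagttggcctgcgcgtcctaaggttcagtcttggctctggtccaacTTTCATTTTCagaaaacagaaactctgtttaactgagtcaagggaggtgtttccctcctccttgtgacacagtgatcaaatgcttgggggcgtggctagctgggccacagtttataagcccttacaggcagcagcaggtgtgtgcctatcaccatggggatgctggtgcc
Trim30a: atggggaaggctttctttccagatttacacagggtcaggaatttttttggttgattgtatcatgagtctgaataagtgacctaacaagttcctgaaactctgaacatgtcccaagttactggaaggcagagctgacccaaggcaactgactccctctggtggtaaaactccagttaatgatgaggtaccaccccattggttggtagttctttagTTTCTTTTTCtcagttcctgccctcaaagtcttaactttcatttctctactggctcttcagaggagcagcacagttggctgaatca
Isg15: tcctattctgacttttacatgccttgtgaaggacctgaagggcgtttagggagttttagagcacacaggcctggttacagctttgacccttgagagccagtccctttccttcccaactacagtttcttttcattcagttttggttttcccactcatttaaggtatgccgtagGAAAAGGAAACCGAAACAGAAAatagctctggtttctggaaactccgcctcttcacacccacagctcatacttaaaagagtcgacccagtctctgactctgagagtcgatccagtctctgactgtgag
Hsph1: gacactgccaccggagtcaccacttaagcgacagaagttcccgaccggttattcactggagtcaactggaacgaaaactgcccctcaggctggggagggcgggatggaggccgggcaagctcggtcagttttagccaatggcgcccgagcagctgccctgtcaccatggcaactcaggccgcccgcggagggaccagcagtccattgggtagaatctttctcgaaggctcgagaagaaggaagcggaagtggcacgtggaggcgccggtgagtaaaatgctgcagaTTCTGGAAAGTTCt
The windows lie at chr3:142620413-142620712 (+ strand) for Gbp2, chr11:58214727-58215026 (+ strand) for Irgm2, chr12:26456403-26456702 (- strand) for Rsad2, chr7:104465144-104465443 (- strand) for Trim30a, chr4:156200769-156201068 (- strand) for Isg15 and chr5:149636287-149636586 (- strand) for Hsph1. The match begins 59 bases before the start in Gbp2, 64 in Irgm2, 120 in Rsad2 and 36 in Trim30a, and Isg15 holds 3 overlapping matches that begin 78 to 66 bases before it; the heat shock element of Hsph1 begins 36 bases after the start. The interferon element was in 8 of 9 GTPase genes with a promoter entry (88.9%), 11 of 18 antiviral genes (61.1%) and 3 of 16 receptor, STAT and IRF genes (18.8%), against 3.44% of all 32851 windows and 3.82% of the 11115 genes tested that had an entry. It was in 55 of 658 genes lower in old cells (8.36%) and 11 of 360 higher genes (3.06%). A match of letters does not show that a factor binds there.

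Among the GTPases, Gvin1, the interferon-inducible very large GTPase, fell furthest. Its log2 signals were 4.05 to 5.97 (median 4.30) on the old arrays, against 7.24 to 8.00 (median 7.76) on the young arrays (8.66-fold lower; -3.11 ± 0.29, adjusted p = 1.8e-07), and it averaged 6.80 in TN2 and 4.54 in TN3 cells. Gbp2, a guanylate-binding protein gene with the element 59 bases before its start, was at 4.79 to 6.44 (median 5.31) on the old arrays and 6.97 to 7.85 (median 7.21) on the young arrays (-1.74 ± 0.25, adjusted p = 6.07e-05). All old values lay below all young values for both. Irgm2, an immunity-related GTPase gene, was at 4.98 to 6.93 (median 5.89) on the old arrays, against 7.01 to 8.34 (median 7.37) on the young arrays (-1.58 ± 0.24, adjusted p = 0.000116). Gbp3 (-1.36 ± 0.17), Gbp5 (-1.75 ± 0.35), Gbp7 (-1.16 ± 0.17), Gbp10 (-1.30 ± 0.28), Igtp (-1.41 ± 0.31), Ifi47 (-1.13 ± 0.17) and Irgm1 (-0.82 ± 0.14) fell as well. Gbp4, Tgtp1 and Iigp1 were not detected on any old array and were at least 1.41-fold, 1.46-fold and 1.17-fold lower (adjusted p = 0.00021, 0.000798 and 0.0178). Mx2 fell by 0.33 ± 0.07 close to the floor, and Gbp8 (-0.14) and Gbp9 (-0.42) did not pass. Guanylate-binding protein genes are near-identical in places, so single members may share signal.

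Against the other groups, the young cells stood high in this family. The mean over the 16 GTPases was 5.25 in old cells without competition, against 6.36 in young cells; it was 5.60 in old cells with competition, 5.60 in TN2 and 5.48 in TN3 cells. The young mean exceeded both the TN2 and the TN3 mean for 14 of the 16 genes, and the mean of old cells without competition lay below both for 8. For the antiviral genes the mean was 5.53 in old cells, against 6.63 in young cells, with 5.87 in old cells with competition, 6.35 in TN2 and 6.09 in TN3 cells. Old cells without competition lay below both sorted stages for 18 of these 25 genes and young cells above both for 13. Of all 15533 genes tested, young cells lay above both stages for 4717 and old cells without competition below both for 4264. Of the 894 genes lower in old cells, these counts were 506 and 602.

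The antiviral genes included both effectors and sensors. Rsad2, which encodes viperin, was at 4.10 to 5.62 (median 4.23) on the old arrays, against 5.78 to 7.14 (median 6.36) on the young arrays (-1.83 ± 0.24, adjusted p = 2.3e-05). Trim30a, a ubiquitin ligase gene induced by interferon, had 4.12 to 6.10 (median 5.10) on the old and 7.05 to 7.75 (median 7.27) on the young arrays (-2.08 ± 0.24, adjusted p = 3.28e-06). Ifitm3, which blocks entry of enveloped viruses, was at 4.29 to 7.64 (median 5.86) on the old arrays and 7.83 to 8.46 (median 8.07) on the young arrays (-2.14 ± 0.39, adjusted p = 0.000838); it differed by -1.59 with old chip 1 and -3.23 with old chip 5. The difference between the old chips did not pass (adjusted p = 0.455), and replicates 7 and 9 of chip 1 lay nearest the young values. The exonuclease gene Isg20 (-1.15 ± 0.13), the RNA sensor gene Dhx58 (-1.25 ± 0.13) and the oligoadenylate synthetase genes Oasl2 (-2.10 ± 0.35), Oas1g (-1.60 ± 0.29), Oas2 (-1.17 ± 0.26) and Oas3 (-0.68 ± 0.18) fell, as did Ddx58, which encodes the sensor RIG-I (-0.91 ± 0.20), Zbp1 (-1.47 ± 0.30), Ifit2 (-1.10 ± 0.24) and Eif2ak2, which encodes the kinase PKR (-0.99 ± 0.16). Oas genes are close paralogs, and 1 of the 5 probes of Oas1g had the opposite sign. Isg15, the ubiquitin-like modifier, fell by 0.85 ± 0.25 (adjusted p = 0.0317), but with old chip 5 only its difference was -0.39 and did not pass. Usp18 (-1.20 ± 0.46, adjusted p = 0.117) and Oasl1 (-0.71 ± 0.23, adjusted p = 0.0516) were lower without passing, and Ifih1 (-0.21 ± 0.08) was near 0. Isg15 (adjusted p up to 0.081 without old replicate 1, 2, 3 or 4 or young replicate 1, 3 or 5) no longer passed with 1 array left out.

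Regulators of the response had a smaller median difference than the GTPases and antiviral genes. Irf9, the DNA-binding subunit of the type I interferon signal, was at 4.84 to 6.15 (median 5.47) on the old arrays, against 6.71 to 7.34 (median 7.10) on the young arrays (-1.63 ± 0.23, adjusted p = 3.8e-05). Irf1, which acts downstream of interferon gamma, had 8.14 to 8.93 (median 8.38) on the old and 9.31 to 9.80 (median 9.55) on the young arrays (-0.998 ± 0.14, adjusted p = 3.38e-05), and the interferon gamma receptor gene Ifngr1 7.79 to 8.60 (median 8.04) and 8.68 to 9.09 (median 8.86) (-0.75 ± 0.14, adjusted p = 0.000853). For all 3, no old value reached a young one. Irf2, Stat3, Jak1, Jak2 and Sting1 fell by 0.48 to 0.63. Stat2 (-0.44 ± 0.19), Ifnar2 (0.01 ± 0.19) and Irf3 (0.38 ± 0.14) did not pass. Jak2 (adjusted p up to 0.121 without 1 of 10 arrays) no longer passed with 1 array left out.

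MHC class I genes, whose products show peptides to T and natural killer cells, went both ways. Of 16 measured members 7 fell and 2 rose, where 5.76% of all genes were lower and 3.17% higher. H2-K1, a classical class I gene, was at 5.70 to 6.85 (median 6.19) on the old arrays, against 7.34 to 8.23 (median 7.96) on the young arrays (-1.66 ± 0.16, adjusted p = 3.9e-07). H2-D1, the other classical gene, was at 6.42 to 8.23 (median 6.76) on the old and 7.97 to 9.48 (median 8.79) on the young arrays (-1.80 ± 0.24, adjusted p = 2.38e-05), where 1 old array, replicate 7, reached the young range. B2m, the light chain common to all class I molecules, was at 9.62 to 10.07 (median 9.74) on the old arrays and 10.13 to 10.44 (median 10.38) on the young arrays (-0.55 ± 0.09, adjusted p = 0.000195). The nonclassical H2-T23 fell by 1.53 ± 0.18, H2-T24 by 0.74 ± 0.19, H2-T22 by 0.50 ± 0.15 and Cd1d1, which shows lipids, by 0.51 ± 0.13. H2-Q2 and H2-Q1 (0.57 ± 0.18) rose, and H2-Q6, H2-Q7 and H2-Q8 differed by -0.18 to 0.01 without passing. Class I genes vary between strains and resemble each other, and the WB background enters the old group alone, so a difference of sequence under a probe cannot be told apart from one of expression. Cd1d1 (adjusted p = 0.0541 without young replicate 5), H2-T22 (adjusted p up to 0.0899 without 1 of 9 arrays) and H2-Q1 (adjusted p up to 0.084 without 1 of 9 arrays) no longer passed with 1 array left out.

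Of 14 measured genes that prepare peptides for class I molecules 6 fell and 0 rose, where 5.76% of all genes were lower. Nlrc5, the transactivator of class I genes, was detected on 6 of the 9 old arrays, at 4.12 to 6.05 (median 4.72), and on all 6 young arrays, at 7.18 to 8.26 (median 7.91) (7.44-fold lower; -2.89 ± 0.32, adjusted p = 2.3e-06). The difference was -2.76 with old chip 1 and -3.16 with old chip 5, and the gene averaged 6.69 in old cells with competition, 7.15 in TN2 and 6.35 in TN3 cells. The peptide transporter genes Tap1 (-1.10 ± 0.16) and Tap2 (-1.18 ± 0.21) fell, and the immunoproteasome subunit gene Psmb9, at 8.83 to 9.24 (median 9.16) on the old arrays and 9.76 to 10.18 (median 9.98) on the young arrays, fell by 0.85 ± 0.08 (adjusted p = 3.9e-07). Psme1 (-0.37 ± 0.09) and Psmb10 (-0.29 ± 0.09) fell, and the other 8 of 14 genes of this list, among them Tapbp and Psmb8, did not pass. Of 11 measured class II genes 3 fell: H2-Ab1, at 4.21 to 5.80 (median 4.68) on the old and 6.52 to 7.28 (median 6.74) on the young arrays (-2.04 ± 0.23, adjusted p = 2.83e-06), H2-DMa (-0.97 ± 0.21) and H2-Ob (-0.73 ± 0.21). Cd74, the invariant chain, was at -0.33 ± 0.28 and did not pass. Psmb10 (adjusted p up to 0.128 without 1 of 11 arrays) and H2-Ob (adjusted p up to 0.107 without old replicate 2 or 3 or young replicate 2, 4, 5 or 6) no longer passed with 1 array left out.

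**Figure D4:**
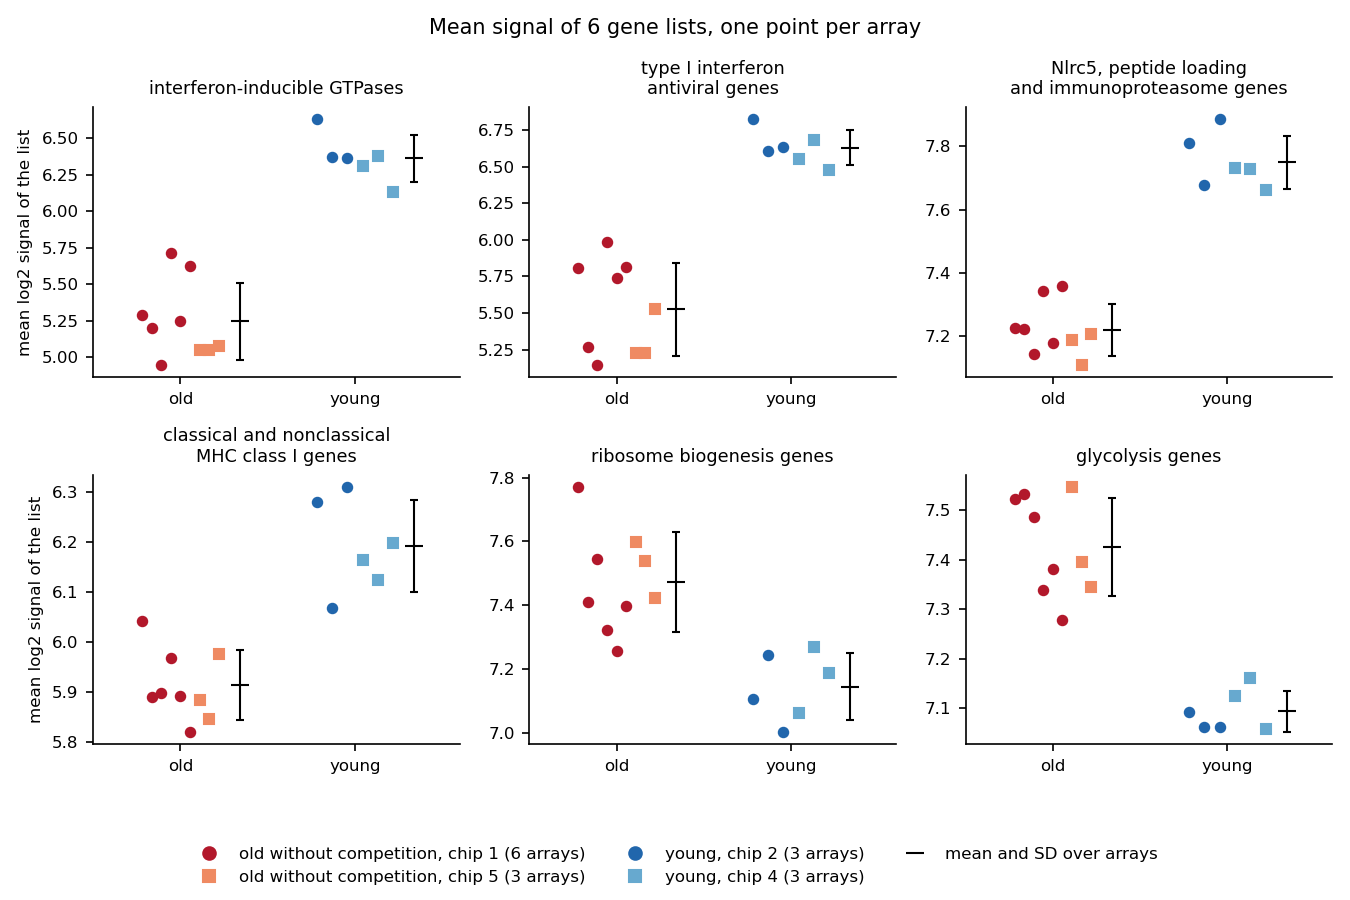
Mean log2 signal of 6 gene lists on each array, old arrays left of young arrays; symbols mark the chips and bars the mean and SD over arrays. All lists but ribosome biogenesis separate the 9 old from the 6 young arrays, with means of 5.25 against 6.36 for the GTPases and 7.42 against 7.09 for glycolysis.

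Markers of myeloid cells were lower in old cells, whereas the mast cell list rested on 2 genes that are also among the largest falls. Of 12 measured myeloid and macrophage markers 7 fell and 0 rose, where 5.76% of all genes were lower. The summed linear signal of the list was 229 to 314 on the old arrays and 613 to 1152 on the young arrays. Averaged over the list, the log2 signal was 4.43 in old and 5.50 in young cells, with 5.69 in sorted TN2 and 4.56 in sorted TN3 cells. It was 4.35 in old cells with competition. Mpo, the myeloperoxidase of granulocyte precursors, was not detected on any old array and was at 5.01 to 7.33 (median 6.24) on the young arrays, at least 3.69-fold lower in old cells (adjusted p = 1.82e-06), and it averaged 6.70 in TN2 and 4.12 in TN3 cells. Fcer1g was likewise undetected in old cells and at least 1.63-fold lower. Lyz1 (-1.50 ± 0.23) and Lyz2 (-1.13 ± 0.19), lysozyme copies that share signal, fell, while Csf1r (0.10), Adgre1 (-0.05) and S100a9 (-0.03), which define macrophages and neutrophils, lay near 0. Csf1r was dropped by the stricter filter, detection p below 0.01 on at least 6 arrays. Of 6 mast cell markers 2 fell, Cpa3 and Alox5ap, and Fcer1a (-0.04) and Cma1 (0.23) did not (list median -0.28). This list averaged 4.84 in old and 5.82 in young cells, with 6.05 in TN2 and 5.13 in TN3 cells. The sums were 112 to 341 on the old arrays and 600 to 862 on the young arrays. These sums did not overlap for either list, and the part of such cells in the differences above was not tested.

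Other marker lists gave smaller counts, to be read against 5.76% of all genes lower. Dendritic cell markers gave 2 of 9 lower (H2-Ab1 and Tcf4; sums 304 to 380 in old and 423 to 629 in young cells), B cell markers 1 of 5 lower (Vpreb1, -1.05 ± 0.25), and erythroid markers 2 of 11 lower. These were the beta-globin genes Hbb-b1, at 4.09 to 7.67 (median 4.47) on the old and 7.37 to 9.77 (median 8.38) on the young arrays (-3.20 ± 0.59, adjusted p = 0.00085; 2 of 11 probes opposite), and its close copy Hbb-b2 (-0.68 ± 0.18), whereas Hba-a1 (0.39), Klf1 (0.24) and Alas2 (0.22) did not pass. Alas2 was not detected on any young array. Of 10 markers of natural killer, innate lymphoid and gamma-delta T cells, Nkg7 (-1.85 ± 0.40) and Fcer1g fell. Of 9 markers of double-positive thymocytes Cd69 alone fell, and 0 of 6 mature T cell and 0 of 11 epithelial and stromal markers passed.

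Genes of cell division passed in both directions. Of 20 mitosis genes 3 rose (15%, against 8.93% of all genes tested), the kinase gene Aurka (0.44 ± 0.14), the motor gene Kif11 (0.52 ± 0.15) and Birc5, which encodes survivin (0.49 ± 0.12), with a list median of 0.15; Mki67 (0.25) and Top2a (0.09) did not pass. Of 24 replication genes Tyms, the thymidylate synthase gene, rose by 0.91 ± 0.22 and Pcna fell by 0.85 ± 0.20 at a dim probe that was detected on 5 of 9 old arrays; the 6 Mcm helicase genes lay between -0.44 and 0.02 and did not pass. Of 20 genes of the G1 phase 3 fell: Cdkn1a, Ccnd1 (-0.999 ± 0.25) and Cdk2 (-0.43 ± 0.12), the last pair with 1 probe of opposite sign each. Ccnd2 (-0.84 ± 0.34, adjusted p = 0.139) and Ccnd3 (0.11) did not pass. Aurka (adjusted p up to 0.111 without 1 of 11 arrays), Kif11 (adjusted p up to 0.0692 without young replicate 1, 4 or 5) and Cdk2 (adjusted p up to 0.0786 without young replicate 2, 5 or 6) no longer passed with 1 array left out. Of the mitosis genes 0 passed with old chip 1 only, 0 with old chip 5 only, 2 with young chip 2 only and 0 with young chip 4 only. With median scaling in place of quantile normalization Aurka, Kif11, Birc5 and Tyms did not pass.

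Of 25 measured heat shock genes 2 rose and 0 fell (8% called, against 8.93% of all genes tested). Hsph1, which encodes the cytosolic chaperone HSP105, was at 9.32 to 9.97 (median 9.80) on the old arrays, against 7.68 to 8.70 (median 8.12) on the young arrays (1.62 ± 0.30, adjusted p = 0.000886), and was at 8.83 to 9.48 on 5 arrays of old cells with competition and at 6.48 on array 6, with averages of 8.57 in TN2 and 8.76 in TN3 cells. Every old array lay above all 6 young arrays. Hspa8, the constitutive Hsp70 chaperone gene, was at 10.15 to 11.63 (median 11.11) on the old arrays and 9.15 to 10.66 (median 10.16) on the young arrays (1.08 ± 0.26, adjusted p = 0.00957). With old chip 1 only 1 heat shock gene rose and Hspa8 did not pass, and with old chip 5 only 2 rose. With young chip 4 only 0 rose, and neither Hsph1 nor Hspa8 passed. The inducible Hspa1a (0.24), Hspa1b (-0.18), Dnajb1 (0.00) and Hsp90aa1 (0.22) did not pass. The heat shock element was found in the promoters of 5 of 22 of these genes (22.7%), Hsph1, Chordc1, Dnajb6, Hspd1 and Hspe1, against 0.603% of all windows, and the last 4 did not pass (-0.03 to 0.47). Of 19 genes of the unfolded protein response 4 fell: Ern1, the sensor IRE1 (-1.05 ± 0.25), its target Xbp1 (-0.56 ± 0.16), Dnajb9 (-0.69 ± 0.17) and Herpud1 (-0.48 ± 0.15). Hspa5 (0.37) and Ddit3 (-0.47) did not pass. Xbp1 (adjusted p up to 0.0694 without old replicate 3, 4 or 6 or young replicate 1, 3 or 5) and Herpud1 (adjusted p up to 0.11 without 1 of 9 arrays) no longer passed with 1 array left out. In refits with old chip 1 only 0 unfolded protein response genes fell, and with old chip 5 only 3. With the old group split by chip instead, 1 called gene of this list passed with each old chip.

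Of 16 glycolysis genes 3 rose and 0 fell (18.8% called, against 8.93% of all genes tested; median 0.39): the glucose transporter gene Slc2a3, at 6.30 to 7.17 (median 6.78) on the old and 5.89 to 6.45 (median 6.13) on the young arrays (0.65 ± 0.14, adjusted p = 0.00301), Pfkp (0.73 ± 0.21) and the lactate dehydrogenase gene Ldha (0.54 ± 0.15). The mean over these 16 genes was 7.28 to 7.55 on the old arrays and 7.06 to 7.16 on the young arrays, without overlap, although 13 genes did not pass singly. Of 18 ribosome biogenesis genes Nop56 alone rose (0.71 ± 0.15, adjusted p = 0.00259), with a list median of 0.39; Ddx21 (0.78 ± 0.25), Rrp9 (0.74 ± 0.31) and the nucleolin gene Ncl (0.66 ± 0.27) did not pass. Mitochondrial ribosomal proteins had 1 of 20 higher, Mrpl37 (0.70 ± 0.16), and a median of 0.27. Oxidative phosphorylation had 3 of 32 higher, Cyc1 (0.54 ± 0.16), Ndufa5 (0.46 ± 0.14) and Atp5c1 (0.23 ± 0.07), and the constitutive proteasome 1 of 20, Psmb3 (0.53 ± 0.13). Cytosolic ribosomal proteins had 3 of 15 lower, Rps3 (-0.68 ± 0.09), Rpl3 (-0.48 ± 0.13) and Rps2 (-0.40 ± 0.10). Of 11 cholesterol synthesis genes and 13 amino acid response genes 0 passed. With median scaling 1 glycolysis gene rose, and 0 of the genes of ribosome biogenesis, mitochondrial ribosomal proteins, oxidative phosphorylation and the constitutive proteasome. With old chip 1 only, 2 glycolysis genes, 1 ribosome biogenesis gene and 1 mitochondrial ribosomal protein gene rose, and 0 of oxidative phosphorylation and of the constitutive proteasome. With old chip 5 only, 1 ribosome biogenesis gene rose and 0 genes of the other 4 lists. Pfkp (adjusted p up to 0.0731 without young replicate 4 or 6), Ldha (adjusted p up to 0.0548 without young replicate 1, 2 or 3), Rpl3 (adjusted p = 0.0536 without young replicate 5), Cyc1 (adjusted p up to 0.103 without old replicate 2, 3, 5 or 6 or young replicate 5 or 6), Ndufa5 (adjusted p up to 0.139 without 1 of 11 arrays) and Atp5c1 (adjusted p up to 0.108 without 1 of 13 arrays) no longer passed with 1 array left out.

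**Figure D5:**
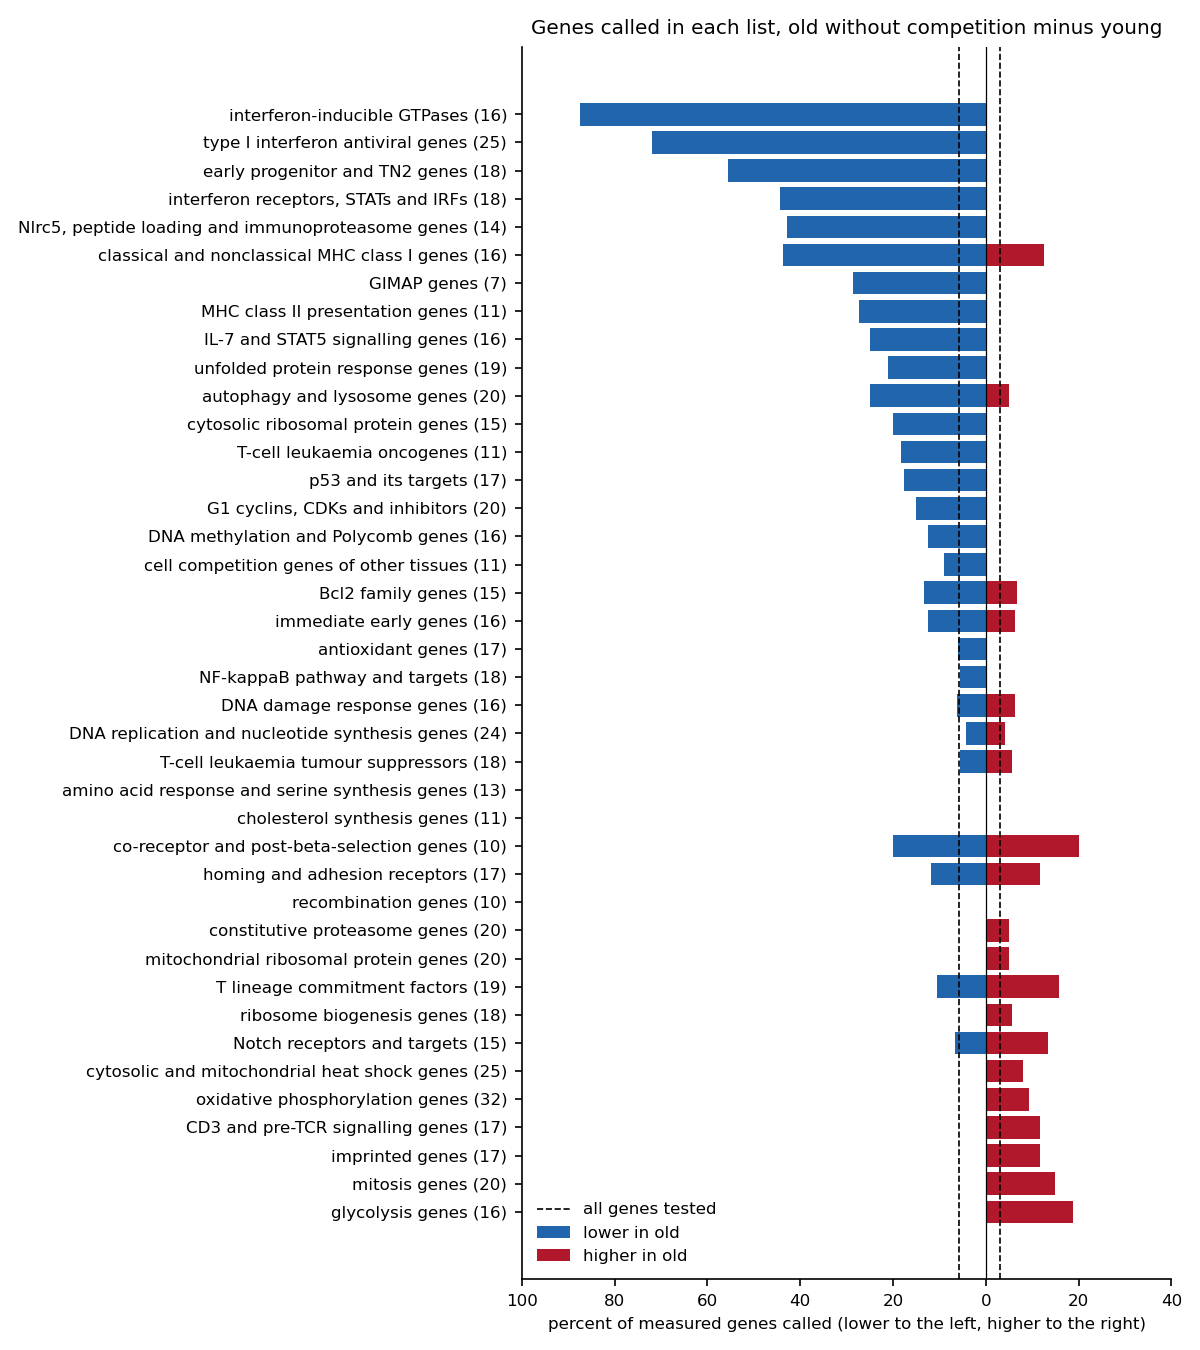
Percent of the measured genes of each list that were called lower (left of 0) or higher (right of 0) in old cells than in young cells, with the number of measured genes in parentheses; dashed lines mark the 5.76% lower and 3.17% higher among all genes tested. The interferon-inducible GTPases lead with 14 of 16 lower, and glycolysis has 3 of 16 higher.

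Lysosomal and autophagy genes, which break down cargo taken up or set aside by the cell, had 5 of 20 lower and 1 higher. The counts of this paragraph are to be read against 5.76% of all genes lower and 3.17% higher. Lamp2, a lysosomal membrane protein gene on the X chromosome, was at 7.31 to 8.12 (median 7.46) on the old arrays and 8.27 to 8.83 (median 8.45) on the young arrays (-0.89 ± 0.15, adjusted p = 0.000426), with 2 of 7 probes opposite; Gabarap (-0.49 ± 0.10), Gabarapl2 (-0.62 ± 0.15), Map1lc3b (-0.45 ± 0.13) and the protease gene Ctsb (-0.39 ± 0.10) fell too, and Ctse rose as above. Of 7 GIMAP genes, GTPases of lymphocyte survival, Gimap6 (-1.44 ± 0.36) and Gimap1 (-0.79 ± 0.24) fell (median -0.62). Of 17 homing and adhesion genes, Nrp1, a semaphorin co-receptor, rose: it was at 7.75 to 8.22 (median 7.92) on the old arrays, against 6.02 to 6.61 (median 6.33) on the young arrays (1.59 ± 0.18, adjusted p = 2.83e-06). Itgb1 rose by 0.52 ± 0.14, while its partner Itga4 (-1.22 ± 0.25) and the selectin ligand gene Selplg (-0.46 ± 0.11) fell, and Ccr9, the chemokine receptor of thymocytes, lay at -0.04 ± 0.21. Itgb1 (adjusted p up to 0.0671 without young replicate 3 or 6), Map1lc3b (adjusted p up to 0.0705 without old replicate 2, 5 or 6 or young replicate 1, 2, 4 or 5) and Gimap1 (adjusted p up to 0.0813 without 1 of 12 arrays) no longer passed with 1 array left out. With old chip 1 only 0 GIMAP genes were called, and with old chip 5 only 3.

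Of 17 imprinted genes 2 rose and 0 fell (11.8%, against 8.93% of all genes tested). Igf2, a fetal growth factor gene, was detected on all 9 old arrays (4.58 to 6.50 (median 5.47)) and on none of the young arrays, at least 2.36-fold higher in old cells (adjusted p = 0.000809), and Igf2r, its clearing receptor, rose by 0.64 ± 0.14. H19, the neighbour of Igf2, was at 1.02 ± 0.65 (adjusted p = 0.401) and did not pass. Of 11 T cell leukaemia oncogenes Lyl1 and Lmo2 fell, as given among the progenitor genes, Myc was at 0.63 ± 0.28 (adjusted p = 0.18) and Tal1 at 0.07. Of 18 tumour suppressors Lef1 rose and Etv6 fell (-0.84 ± 0.21). Of 16 genes of DNA methylation and Polycomb, Rnf2 (-0.71 ± 0.16) and Ezh1 (-0.76 ± 0.22) fell. Of 11 genes of cell competition in other tissues Flot1, which encodes a membrane raft protein, alone fell, at 4.39 to 6.58 (median 5.92) on the old and 6.76 to 7.71 (median 6.97) on the young arrays (-1.23 ± 0.26, adjusted p = 0.00357). Immediate early genes had Phlda1 higher and Ier3 (-1.52 ± 0.34) and Klf6 (-0.45 ± 0.14) lower of 16, NF-kappaB genes Icam1 lower of 18 (-0.81 ± 0.20), DNA damage genes Trp53bp1 higher (0.40 ± 0.11) and Atm lower (-0.51 ± 0.15) of 16, and antioxidant genes Gstm1 lower of 17 (-0.60 ± 0.16). Gstm1 (adjusted p up to 0.0509 without young replicate 3 or 6), Trp53bp1 (adjusted p up to 0.0745 without young replicate 2 or 6), Atm (adjusted p up to 0.0914 without old replicate 2 or 8 or young replicate 3, 5 or 6), Ezh1 (adjusted p up to 0.0901 without old replicate 1, 2, 3 or 5 or young replicate 1, 3 or 5) and Klf6 (adjusted p up to 0.134 without 1 of 9 arrays) no longer passed with 1 array left out.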

How the data were processed

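Per the labels' protocols, RNA was isolated with RNAzol B and biotin-labelled for Illumina bead arrays with the MessageAmp kit of Ambion. The sources used here name no scanner, software or genome build. The authors deposited the intensity of 46237 probes on a linear scale, neither background-subtracted nor scaled, as the values show. A detection p-value was deposited for each intensity, from a test that is not stated. The authors' deposited log2 values, with equal quartiles and a median of 6.51 on all arrays, correlated with the log2 of the intensities at 0.9953 or more and served as an alternative.

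The function neqc (limma 3.58.1, R 4.3.3) took the background from the detection p-values, quantile normalized the intensities and added an offset of 16 before the log2 step, which understates the differences of dim genes. Probes detected (p-value below 0.05) on 3 or more arrays were kept, 30174 in all, and 6092 of these had no gene name and were left out. The platform's annotation gave 1 symbol to 35784 probes, several to 0 and no symbol to 10453. RefSeq genes were matched by gene identifier (28620) or transcript accession (2637), and 937 symbols were updated. Each gene was read from its kept probe of highest mean.

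A single limma model held all 25 arrays, with 1 mean for each group, chips as random blocks (duplicateCorrelation with statmod 1.5.0 gave a correlation of 0.004573) and eBayes. The tests were two-sided, with Benjamini-Hochberg adjustment over 15533 genes. The words rose, fell and passed refer to an adjusted p below 0.05. For contrasts by chip the groups were split by chip and no block was used. Results given with a chip only, or with a young chip alone, come from refits that left out the group's other chip. These refits kept the random block. Old chip 1 gave 854 genes by the split and 789 by the refit, and old chip 5 gave 929 and 898. Differences are log2, old minus young, ± standard error, and the values of a group run from its lowest to its highest array with the median. Where a gene was undetected on every array of a group, its fold is a bound, set against the lowest detected signal of each array or the gene's own where higher. Promoters came from RefSeq, GRCm38.p6. The fit was tested on simulated data.

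Groups follow the source labels, and replicate numbers follow accession order and pair nothing. Whether samples of a group came from different mice is not labelled, so the p-values cover only the spread among these samples, and precision is limited by the number of arrays. Members, gene lists and tests were chosen with earlier results of these data known. Genes are named as label checks, as the 15 largest rises or falls among called, non-predicted genes without overlap between the groups and with 1 sign in all 4 pairs of an old and a young chip, as differing between the old chips, or as members of 51 lists (the 6 smallest adjusted p-values and others by role). Alternatives changed the background correction, normalization, source table, filter, probe choice, block, samples in the fit, array weights and variance prior, or left out chips and arrays.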

Additional observations from a re-analysis of the deposited data

Results flagged for a closer look

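In 24 of 396 groups of values tested for a single array far from the others, the highest or lowest array was set apart by a gap above the 95% critical value of Dixon's test for its group. Chance alone sets apart about 1 in 20 groups. Old replicate 1, the sample without a cell type label, gave 7 of them: it was highest for Bid (8.58, the other old arrays 6.65 to 7.43), H2-T24 (5.73, others 4.12 to 4.93), Ldha (11.16, others 10.29 to 10.68), Gapdh (9.09, others 8.34 to 8.64) and Rpl3 (10.96, others 10.76 to 10.86), and lowest for Psmb9 (8.83, others 9.04 to 9.24) and Psmb8 (7.99, others 8.22 to 8.43).

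Young replicate 5 gave 4: it was highest for Alox5ap (8.56, the other young arrays 7.73 to 8.00) and Gimap6 (7.58, others 6.26 to 6.63), and lowest for Ccnd2 (7.83, others 8.46 to 8.80) and Ndufa5 (7.24, others 7.76 to 8.02). Old replicate 6 was highest for Clec10a (6.02, others 4.08 to 4.73), Flt3 (4.49, others 4.10 to 4.25) and Stat3 (9.37, others 8.52 to 8.95), and old replicate 2 for Meis1 (4.97, others 4.10 to 4.53) and Fos (5.68, others 4.10 to 4.43). Old replicate 8 was highest for Cd163 (4.97, others 4.07 to 4.31), replicate 5 for Tyrobp (5.65, others 4.10 to 4.61), replicate 7 for H2-D1 (8.23, others 6.42 to 7.21) and replicate 4 for Gstm1 (4.80, others 4.08 to 4.40). Among the young arrays replicate 4 was highest for 4930513E20Rik (4.36, others 4.09 to 4.19), and replicates 1, 3 and 6 were lowest for Lat (8.03, others 8.44 to 8.58), B2m (10.13, others 10.33 to 10.44) and Gimap1 (7.47, others 7.78 to 7.83).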

How the results depend on the processing

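Of 149 called genes named above, 147 kept their sign, and 63 also stayed called, under every one of the 31 alternatives in which they were tested. Spi1 was not tested with detection p below 0.01 on at least 6 arrays, and leaving out the old sample without a cell type label is the same fit as leaving out old replicate 1. The exceptions in sign were Atp5c1, at -0.01251 with median scaling in place of quantile normalization, and Tcf12, at 0.06305 with the mean of all its kept probes. Of the named genes that were not called, 28 passed under at least 1 alternative. Median scaling moved the counts furthest among the alternatives of value and normalization. It called 4739 genes between old and young cells, 2365 higher and 2374 lower, with 1052 of the 1387 genes among them, at a median of 0.0393 over all genes. It gave 3561 genes with old chip 1 and 1894 with old chip 5. The disjoint pairings gave 592 and 601 genes called in both contrasts with the same sign. Between the old chips 0 genes were called, against 2 with quantile normalization. At an unadjusted p below 0.05 (limma) that contrast held 520 genes, against 970 with quantile normalization. Median scaling ended the calls of 21 named genes. Values without background subtraction and the deposited log2 values gave 1422 and 1420 genes and each ended 4 named calls. With only the 15 arrays and the chip as a random block 2142 genes passed (895 higher), and with array weights 2167 (915 higher). Fewer passed with part of the arrays: 789 with old chip 1 only (258 higher, 531 lower), 898 with old chip 5 only (290 higher), 699 with young chip 2 only (215 higher, 484 lower) and 538 with young chip 4 only (156 higher, 382 lower). Leaving out single arrays gave 1025 to 1450 genes, 327 to 527 higher and 698 to 925 lower, and ended 34 named calls. The causes of these moves were not tested. Leaving out the old sample without a cell type label gave 1450 genes, 1262 of them among the 1387. No paired analysis was possible because the replicate numbers follow accession order and name no shared animal, batch or day. Genes near the floor, and those detected on few arrays of a group, have differences that the array's background limits.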
